A study of Mus musculus with 6 samples.

Results

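Cluster 9 is a minor Leiden cluster of the cells of the embryonic outflow tract (OFT), the vessel that leaves the heart and is later divided into the aorta and the pulmonary artery. Its members were all segmented cells that lay inside the hand-drawn OFT outline and carried the authors' cluster label 9. There were 209 such cells among 6078 OFT cells (3.44%) and 364721 segmented cells in all. The cells came from a MERFISH experiment, an imaging method that counts single RNA molecules of chosen genes in tissue, on 10 µm transverse sections of mouse embryos at E11.5 with a panel of 140 genes. Each section came from 1 embryo, with 3 Ankrd11-nchet embryos (Ankrd11 fl/WT; Wnt1Cre2; RosaYFP STOP/STOP), the controls, and 3 Ankrd11-ncko embryos (Ankrd11 fl/fl; Wnt1Cre2; RosaYFP STOP/STOP), numbered 1 to 3 within each genotype. All 6 embryos thus carried the Cre transgene and the reporter, and the controls had lost a single copy of Ankrd11, a chromatin regulator, in the neural crest. Wnt1Cre2 acts in the premigratory neural crest and its descendants, so by design Ankrd11 is left intact in OFT cells of other origin. Which origin the cells of cluster 9 had was not measured. Controls held 119 of the cells and Ankrd11-ncko embryos 90, and the embryo was the replicate throughout.

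At this stage the wall of the OFT is a sleeve of cardiomyocytes that came from the second heart field, around an endocardial lining and cushions filled with mesenchyme. Cardiac neural crest cells enter the cushions from the pharyngeal arches and help to divide the tract, while smooth muscle replaces muscle of the heart type in the walls of the great vessels. Bone morphogenetic proteins made by the myocardium and Notch ligands are among the signals that pass between these tissues.

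The identity of cluster 9 was taken from the study's cluster heatmap alone, read by eye. There the cluster is marked by genes that set other clusters apart. It shares Cxcl12, which encodes a chemokine, and Jag1, which encodes a Notch ligand, with cluster 1. It shares Myh7, the gene for a myosin heavy chain of heart muscle, and Bmp7, which encodes a bone morphogenetic protein, with clusters 5 and 6. Bmp4, a related ligand, Hand1, a transcription factor of the developing heart, and to a lesser degree Ednra, the gene for an endothelin receptor, and Hoxa3, a patterning gene of the pharyngeal region, also appear in it. The genes that mark cushion mesenchyme (Penk, Postn, Sox9), endothelium (Cdh5) and mesothelium (Aldh1a2) are low there, and the cluster is not among those assigned to the neural crest. Counts per gene were not analysed here, so these markers could not be checked against the cells, neither could the loss of Ankrd11, and the cluster is given no cell type name. Clusters 1, 5 and 6 served as the main comparison because of the genes they share with it.

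The measurements used were the decoded transcripts and the detected panel genes of each cell, together with its cluster label and its identifier. Sections held 43458 to 82198 segmented cells, OFT outlines held 814 to 1292 cells, and the median OFT cell of an embryo held 389 to 745 transcripts. No identifier occurred more than once, and 0 cells had a genotype that went against their embryo's label. The embryos were processed at 2 facilities, with both genotypes at each; which embryo was processed where was not stated, but the identifiers shared their first 7 digits between control 3 and Ankrd11-ncko 3 and differed there in the other 4 embryos, so values are also given within these sets. The titles of controls 1 and 2 and of Ankrd11-ncko 2 begin with the same stem, whose meaning the labels do not give, and no other stem joins the genotypes.

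The share of cluster 9 in the OFT was compared between genotypes to ask whether the population was smaller or larger in the knockout. The control sections held 49, 41 and 29 cells of cluster 9, and the Ankrd11-ncko sections held 34, 40 and 16. As a share of the OFT cells, the control embryos had 5.39% (95% Wilson interval 4.10% to 7.06%), 4.17% (3.09% to 5.60%) and 2.75% (1.92% to 3.92%). The Ankrd11-ncko embryos had 2.63% (1.89% to 3.65%), 3.90% (2.88% to 5.27%) and 1.97% (1.21% to 3.17%). Control 1 was the highest and Ankrd11-ncko 3 the lowest, and the genotypes overlapped, since Ankrd11-ncko 2 lay above control 3. These intervals cover counting error only. The means were 4.10% ± 1.32 in controls and 2.83% ± 0.984 in Ankrd11-ncko embryos (SD, n = 3 and 3). The difference, -1.27 percentage points, was smaller than the SD of the controls and larger than that of the Ankrd11-ncko embryos. The exact 2-sided permutation test gave p = 0.2 (adjusted p = 0.4 by Benjamini-Hochberg over 6 measures of cluster 9), where the smallest p that 3 embryos against 3 allow is 0.1. Among the 13 clusters, 15.4% had shares that did not overlap between the genotypes, and cluster 9 was not one of them.

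**Figure D1:**
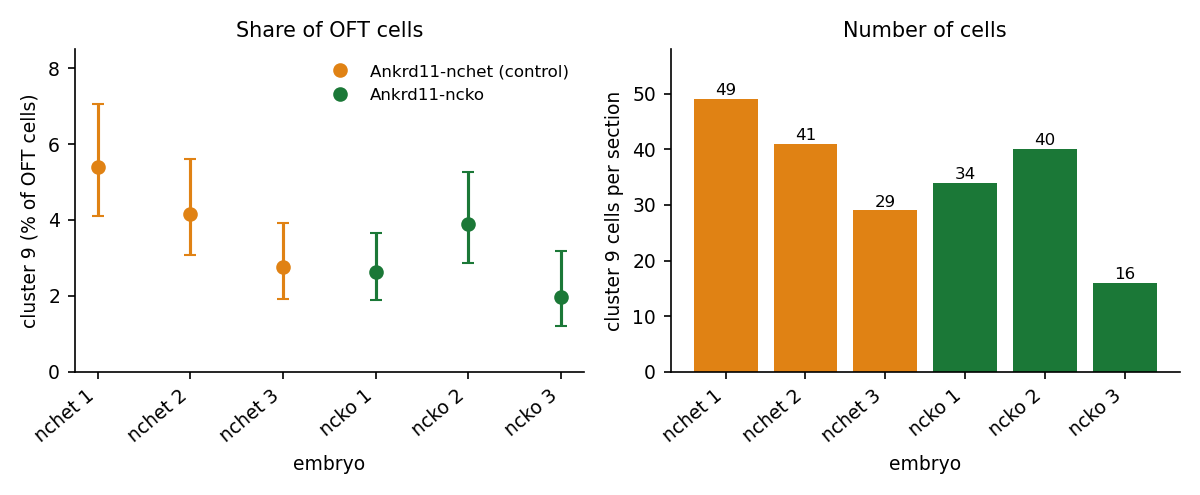
Percentage of OFT cells that belonged to cluster 9 in each embryo (left, with 95% Wilson intervals as bars) and number of cluster 9 cells in each section (right), orange for Ankrd11-nchet controls and green for Ankrd11-ncko. Shares ran from 2.75% to 5.39% in controls and from 1.97% to 3.90% in Ankrd11-ncko embryos, so the genotypes overlap.

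The size of this difference rested on single embryos. Without control 1 it was -0.626 percentage points, and without control 3 it was -1.95. It was -0.786 between embryos 3 of each genotype and -1.51 among the other 4 embryos. Ranked by number of cells, cluster 9 was the sixth, eighth and ninth cluster in controls and the eleventh, eighth and ninth in the Ankrd11-ncko embryos.

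Among the cells of the 3 clusters that show Myh7 (clusters 5, 6 and 9), the control embryos had 22.2%, 14.5% and 14.8% in cluster 9. In the Ankrd11-ncko embryos it made up 14.4%, 16.7% and 8.70%. Control 1 stood above the other embryos and Ankrd11-ncko 3 below them, while the remaining 4 lay close together. The means were 17.2% ± 4.35 and 13.3% ± 4.14 (SD, n = 3 and 3, difference -3.87 percentage points, exact 2-sided permutation p = 0.4, adjusted p = 0.48). The difference was -6.10 percentage points between embryos 3 of each genotype and -2.76 among the other 4. This share leaves out the cells of all other clusters that the outline took in.

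Cells of cluster 9 were rich in transcripts, as were those of several larger clusters. They held 206 to 2842 decoded transcripts with a median of 714, and 44 of them (21.1%) held more than 1000. That share was 34.3% in cluster 6, 25.5% in cluster 3, 21.9% in cluster 2, 19.4% in cluster 4 and 16.8% in cluster 1. It was 2.64% in cluster 5. No cell of cluster 9 held fewer than 200, although 708 OFT cells (11.6%) did, and 0 of 708 allows a share of up to 0.424%. Cluster 9 was the one cluster of 13 with no cell below 200 transcripts. Such cells were rare in other clusters too, with 1 in cluster 6 (0.197% of its cells) and 4 in cluster 3 (0.426%). Cluster 2 had 7 (0.705%) and cluster 1 had 11 (1.03%), so their absence does not set cluster 9 apart from these. Cluster 5 had 147, or 22.9% of its cells. The share of cluster 9 among OFT cells was 2.50% at 200 to 399 transcripts, 3.93% at 400 to 799, 4.76% at 800 to 1199 and 4.69% at 1200 and more, over all embryos together. This order did not hold in each embryo. In control 3 the share was 3.57%, 3.28% and 2.10% in the first 3 of these bands, and the highest shares at 800 to 1199 transcripts were 11.7% in control 1 and 8.70% in Ankrd11-ncko 2. The clusters were drawn from the transcripts of the same cells, so differences between clusters in transcripts or genes are descriptions without a test.

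Median transcripts per cluster 9 cell were 537, 939 and 647 in controls 1 to 3 and 623, 877 and 913 in Ankrd11-ncko embryos 1 to 3. Control 2, Ankrd11-ncko 2 and Ankrd11-ncko 3 were high and the rest were low, in either genotype. The means of the medians were 708 ± 208 and 804 ± 158 transcripts (SD, n = 3 and 3), a difference of 96.7 within the spread of either genotype (exact 2-sided permutation p = 0.7, adjusted p = 0.7). The difference was 266 between embryos 3 of each genotype and 12 among the other 4. Over clusters 1 to 10, 10% had median transcripts that did not overlap between the genotypes, and cluster 9 did overlap. In each of the 6 embryos the median of cluster 9 lay above that of all OFT cells, by a factor of 1.04 in control 3 to 1.43 in Ankrd11-ncko 3.

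**Figure D2:**
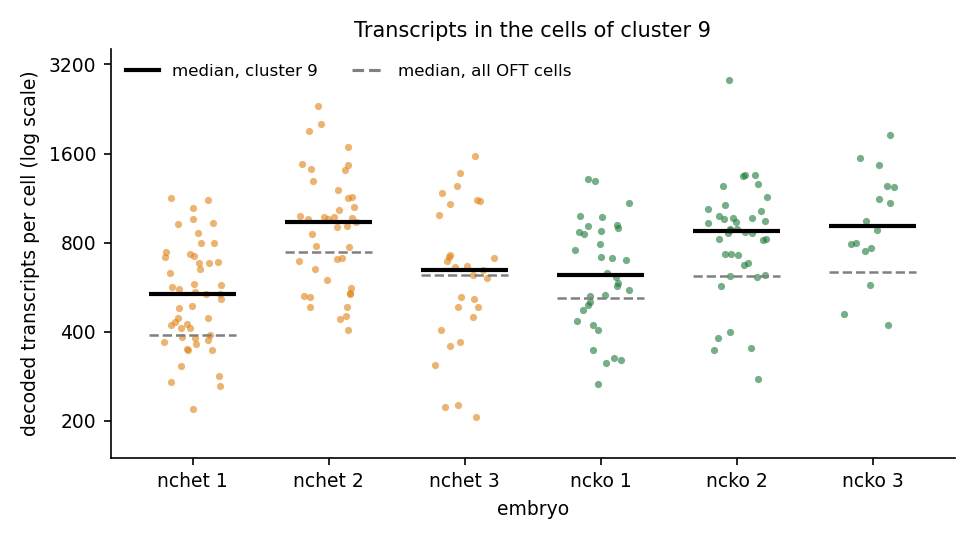
Decoded transcripts per cell (y axis, log scale) of the 209 cells of cluster 9, 1 point per cell, by embryo, orange for Ankrd11-nchet and green for Ankrd11-ncko; the black line is the median of cluster 9 and the dashed grey line that of all OFT cells of the embryo. No cell lies below 206 transcripts, and the median of cluster 9 is above the dashed line in all 6 embryos.

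Within single embryos, cluster 9 lay far above cluster 5 and near clusters 1 and 6 in depth. Its median was 1.90 to 2.64 times that of cluster 5 and 1.01 to 1.24 times that of cluster 1, above both in 6 of 6 embryos. Against cluster 6 it was higher in 3 embryos and lower in 3, at 0.736 to 1.06 times the median. Of the cluster 9 cells, 89.7% to 100% by embryo held more transcripts than the median cell of cluster 5, and 27.6% to 60% held more than that of cluster 6. The medians of clusters 1 and 5 added together came to 776.5, 1206.5 and 948 transcripts in the controls and 846, 1124 and 1113 in the Ankrd11-ncko embryos. The median of cluster 9 was 0.682 to 0.820 times that sum, below it in every embryo. Whether a cell of cluster 9 holds the transcripts of 2 adjoining cells that were segmented as 1 was not tested, since that needs counts per gene and cell volumes.

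**Figure D3:**
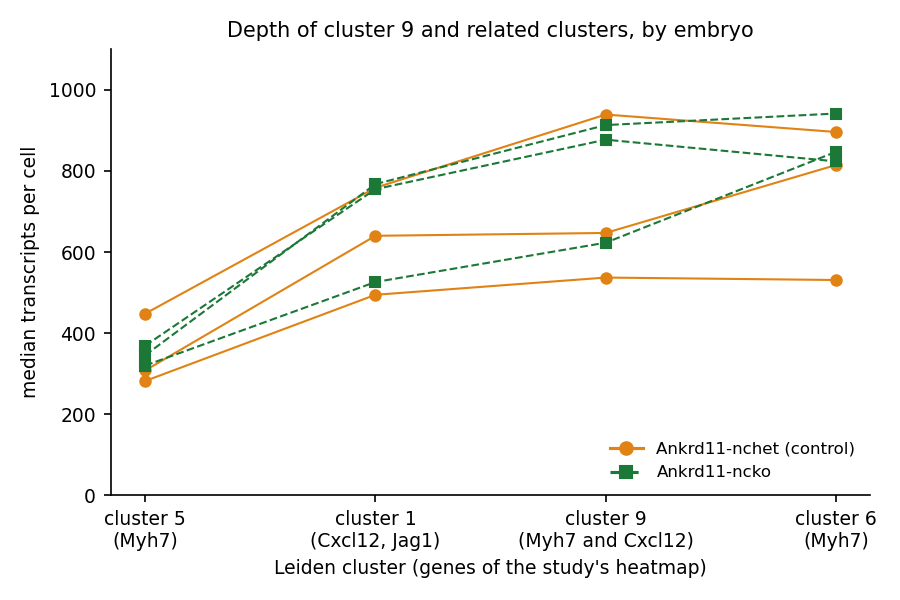
Median decoded transcripts per cell (y axis) in clusters 5, 1, 9 and 6 (x axis, with genes that mark them in the study's heatmap), 1 line per embryo, orange with solid lines for Ankrd11-nchet and green with dashed lines for Ankrd11-ncko. Cluster 9 lies above clusters 5 and 1 in all 6 embryos, and above cluster 6 in 3.

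Cluster 9 cells within an embryo also varied in depth. The ratio of the upper to the lower quartile of transcripts was 1.86, 1.91 and 2.21 in controls and 1.83, 1.46 and 1.62 in the Ankrd11-ncko embryos. Every Ankrd11-ncko embryo thus lay below every control, Ankrd11-ncko 1 by a narrow margin. The means were 1.99 ± 0.187 and 1.64 ± 0.182 (SD, n = 3 and 3, difference -0.357, exact 2-sided permutation p = 0.1, the smallest possible, adjusted p = 0.4). Over clusters 1 to 10, 10% had quartile ratios that did not overlap between the genotypes, and this was cluster 9. With the SD of log2 transcripts in place of the quartile ratio the difference was -0.0609 and p = 0.6 by the same exact test, and Ankrd11-ncko 3 gave its ratio on 16 cells. The difference in the quartile ratio was -0.589 between embryos 3 of each genotype and -0.241 among the other 4.

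The cells of cluster 9 detected many of the panel genes, about as many as cells of clusters 1, 2, 3 and 6. The number ran from 69 to 126 genes per cell with a median of 97. Over all embryos the median was 101 in cluster 1, 99 in cluster 2, 97 in cluster 3, 96 in cluster 6 and 65 in cluster 5. Embryo medians were 92, 99 and 96 genes in the controls and 92.5, 100 and 106.5 in the Ankrd11-ncko embryos. Ankrd11-ncko 3 was the highest, and the others overlapped. The means were 95.7 ± 3.51 and 99.7 ± 7.01 genes (SD, n = 3 and 3, difference 4, exact 2-sided permutation p = 0.4, adjusted p = 0.48), with 10.5 genes between embryos 3 of each genotype and 0.75 among the other 4. Over clusters 1 to 10, 0% had medians of panel genes that did not overlap between the genotypes.

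Since a deeper cell detects more genes, cells within a common range of transcripts were compared next. Between 200 and 1000 transcripts, where 165 of the 209 cells lay, the medians were 90.5, 96 and 91.5 genes in controls and 92, 98 and 98 in the Ankrd11-ncko embryos. The last of these rests on 9 cells. Ankrd11-ncko 2 and 3 were the highest, Ankrd11-ncko 1 lay among the controls, and the genotypes overlapped. The means were 92.7 ± 2.93 and 96.0 ± 3.46 genes (SD, n = 3 and 3, difference 3.33, exact 2-sided permutation p = 0.2, adjusted p = 0.4), and 0% of clusters 1 to 9 were without overlap. The difference was 6.5 genes between embryos 3 of each genotype and 1.75 among the other 4. Depth still differed inside this range, with median transcripts of 503, 703 and 521.5 in controls and 584, 818.5 and 766 in Ankrd11-ncko embryos. Against the 50 other OFT cells nearest in transcripts, the difference between genotypes was 1.83 genes. Against other OFT cells within 10% in transcripts it was 1.33, and both of these matchings were chosen after the data were seen.

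At like depth, cells of cluster 9 detected more genes than cells of cluster 5, somewhat more than cells of cluster 6 in 5 of 6 embryos, and fewer than cells of cluster 1. Each cell of cluster 9 was set against the cells of another cluster of its own embryo whose transcripts lay within 10% of its own, where there were at least 3 of them, a matching chosen after the data were seen. Against cluster 5, the median cell detected 16 and 16.75 genes more in controls 2 and 3 and 13, 13 and 22 more in the Ankrd11-ncko embryos. Control 1 lay lowest, with quartiles of 8.13 and 14.5 genes. All 6 medians lay above 0, as did 162 of the 164 cells with a match, but the value of Ankrd11-ncko 3 rests on 3 cells, since 13 of its 16 cells had too few cells of cluster 5 at their depth. Against cluster 6, the median was 0, 5.75 and 4.5 genes in controls and 3.25, 6.75 and 9 in the Ankrd11-ncko embryos. Control 1 showed no difference in the median, and 137 of 187 matched cells (73.3%) lay above their counterparts over all embryos.

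Against cluster 1, the median difference was -6, -7.25 and -4 genes in controls and -7, -6.5 and -2.5 in the Ankrd11-ncko embryos. Cluster 9 was thus lower in all 6 embryos, with the smallest gap in Ankrd11-ncko 3, and 177 of 206 matched cells (85.9%) lay below their counterparts. Against clusters 2 and 3, which the study assigned to the neural crest, the medians ran from -4 to 3.5 genes and had no common sign. Bands of depth gave the same order against cluster 1. At 400 to 799 transcripts, the median over all embryos was 94 genes in the 95 cells of cluster 9 and 99 genes in the 530 cells of cluster 1, and at 1200 and more it was 112.5 and 118.

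**Figure D4:**
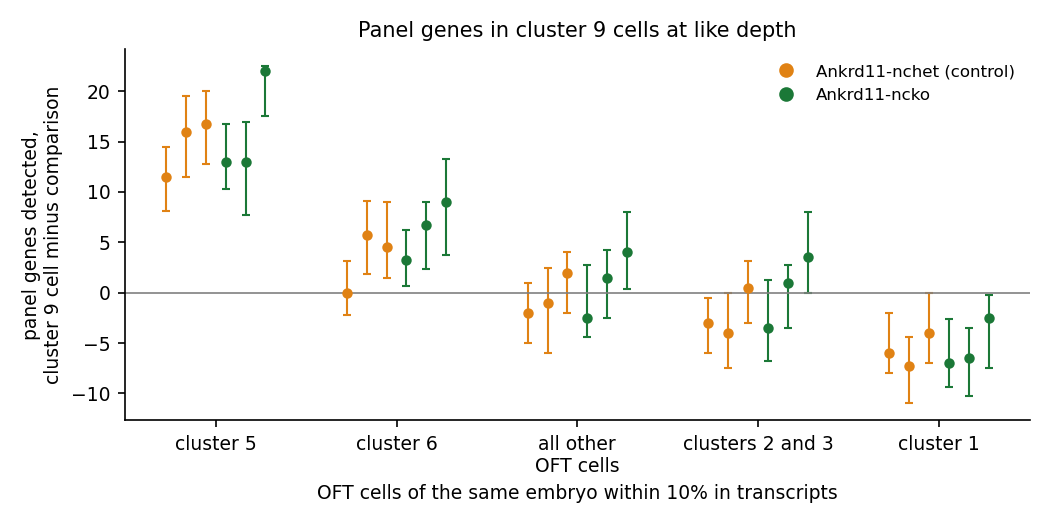
Panel genes detected in cluster 9 cells minus the median of the cells within 10% in transcripts (y axis), for 5 sets of OFT cells of the same embryo (x axis); points are medians over the matched cluster 9 cells of an embryo and bars their quartiles, orange for Ankrd11-nchet and green for Ankrd11-ncko. All 6 medians lie above 0 against cluster 5, with the highest at 22 genes, and they lie at 0 to 9 against cluster 6 and at -7.25 to -2.5 against cluster 1.

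Cell positions were not analysed here, and the cell identifiers were used to ask where in the OFT cluster 9 lay. Identifiers have 19 digits, and cells that share digits 9 to 13 were treated as a block. The OFT cells of a section lay in 3 or 4 of its 56 to 104 blocks, so cells of a block, or cells that follow each other in identifier order, were taken as a stand-in for cells that lie near each other. What the digits stand for is not given in the sources used here. Identifiers played no part in the clustering.

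In 3 embryos cluster 9 was unevenly divided over the blocks, which describes single sections and was not tested over embryos. In Ankrd11-ncko 2, a total of 31 of the 40 cells were in a block of 212 OFT cells, where they made up 14.6% (95% Wilson interval 10.5% to 20.01%). A block of 343 OFT cells in that embryo held the other 9 cells (2.62%), and blocks of 289 and 181 OFT cells held none, for which 3 cells would make 1.04% and 1.66% (Wilson upper limits 1.31% and 2.08%). In control 2, a total of 21 of 214 OFT cells in a block were of cluster 9 (9.81%, interval 6.51% to 14.5%), against 20 of 693 in the largest block (2.89%, interval 1.88% to 4.42%). In control 3 it was 19 of 366 (5.19%, interval 3.35% to 7.97%) against 8 of 637 (1.26%, interval 0.638% to 2.46%). A small block of control 3 held 2 cells of cluster 9 among 14 OFT cells (14.3%, interval 4.01% to 39.9%). Another, of 37 OFT cells, held none (Wilson upper limit 9.41%).

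The blocks rich in cluster 9 differed in what else they held. That of control 2 held 63 cells of cluster 2, which the study assigned to the neural crest, 51 of cluster 6, 39 of cluster 5 and 8 of cluster 1. The block of 366 OFT cells in control 3 held 165 cells of cluster 1, 60 of cluster 2, 4 of cluster 6 and 2 of cluster 5. The block of Ankrd11-ncko 2 held 73 cells of cluster 2, 37 of cluster 5, 18 of cluster 6 and 13 of cluster 1. Of these clusters, cluster 2 was the most frequent in the blocks of control 2 and Ankrd11-ncko 2, and cluster 1 in that of control 3. Over all cluster 9 cells of Ankrd11-ncko 2, cluster 2 made up 31.7% of the block neighbours against a base of 18.7%, and in control 2 it made up 23.5% against 18.5%. In control 1 and Ankrd11-ncko 1 the larger blocks held similar shares (5.21% and 6.55%, and 2.57% and 2.76%), and in Ankrd11-ncko 3 all 16 cells lay in a block with 97.8% of the OFT cells.

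Over the 6 embryos, no cluster was consistently more or less frequent in the blocks of cluster 9 cells than in the OFT as a whole. The difference was -0.51 percentage points for cluster 1, 0.40 for cluster 5, 0.32 for cluster 6 and 2.91 for cluster 2 (means over 6 embryos, each with the higher share in 3 of 6, exact 2-sided sign-flip permutation test over embryos, adjusted p = 0.875 for each over 10 clusters). For other cells of cluster 9 it was 1.85 percentage points (higher in 4 of 6, exact p = 0.219, adjusted p = 0.729). Of the 10 clusters, 0% differed in the same direction in all 6 embryos. In control 1, Ankrd11-ncko 1 and Ankrd11-ncko 3 the measure could differ little from its base. There cluster 9 was divided about evenly over the larger blocks, or a block held nearly all OFT cells. For cluster 5 the differences in these embryos were 0.22, -0.07 and -0.57 percentage points, so the test says little about them.

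At the finer scale of the 10 OFT cells on each side in identifier order, a neighbourhood chosen as the alternative to the block, cluster 9 cells lay beside other cluster 9 cells. Neighbours were taken only among cells with the same block and the same digit 14 of the identifier, so fewer counted at the ends of such a group. The base share was that of the whole embryo. Of the neighbours, 9.10%, 9.44% and 10.4% in controls and 5.29%, 21.7% and 9.67% in the Ankrd11-ncko embryos were of cluster 9. Each embryo lay above its own base share, by 3.81, 5.37 and 7.70 percentage points in the controls and by 2.74, 17.9 and 7.82 in the Ankrd11-ncko embryos. Ankrd11-ncko 2 stood far above the rest. The mean difference was 7.56 ± 5.46 percentage points (SD, n = 6, exact 2-sided sign-flip p = 0.0312, the smallest possible, adjusted p = 0.312 over 10 clusters), and 10% of the 10 clusters were more frequent beside cluster 9 in all 6 embryos. Most clusters behaved in this way, as 90% of the 10 clusters tested were more frequent beside their own cells in all 6 embryos. The ratio of neighbours to base share was 3.49 ± 1.71 for cluster 9, 2.60 ± 0.766 for cluster 1, 2.17 ± 0.450 for cluster 5, 2.76 ± 0.653 for cluster 6 and 4.51 ± 1.63 for cluster 10 (SD over 6 embryos), so cluster 9 lay within the range of the other clusters.

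Other neighbours of cluster 9 varied by embryo. Cells of cluster 3, which the study assigned to the neural crest, were less frequent beside cluster 9 in 5 of 6 embryos (mean difference -6.82 percentage points ± 7.40, SD, exact sign-flip p = 0.0938, adjusted p = 0.312). Cells of cluster 4, which the heatmap shows with Cdh5, were also less frequent in 5 of 6 (-4.96 ± 4.83, with the same p values by the exact test). Neither passed the test, but with 6 embryos and 10 clusters a single cluster could not pass after adjustment. Cluster 9 itself, more frequent in all 6 embryos, had the same adjusted p (0.312, exact sign-flip test). Cluster 5 was more frequent in 4 of 6 (3.92 ± 6.40, exact p = 0.219), and cluster 1 in 3 of 6 (4.48 ± 7.94, exact p = 0.25), with differences as far apart as -4.14 and 13.9 percentage points between embryos.

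**Figure D5:**
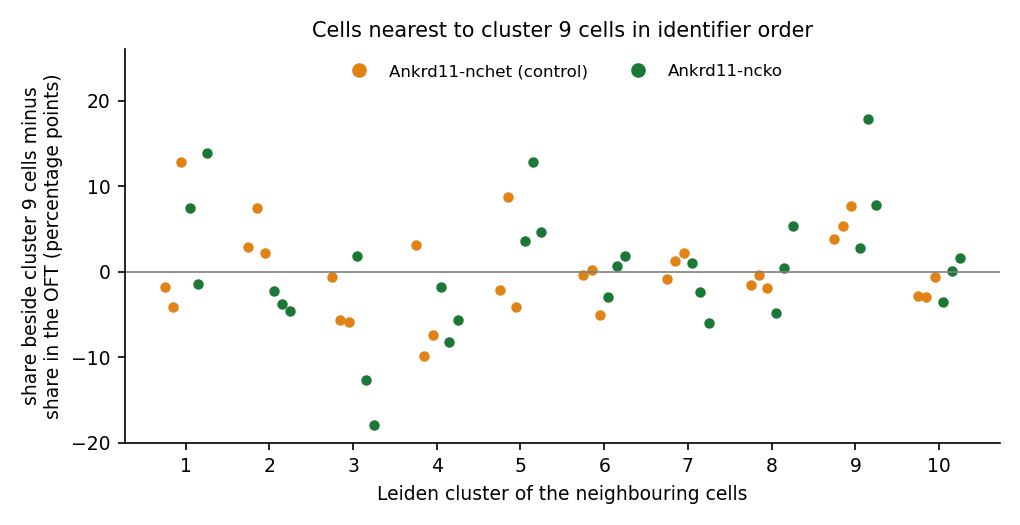
Share of each Leiden cluster (x axis) among the 10 OFT cells on each side of cluster 9 cells in identifier order, minus its share among the OFT cells of the embryo (y axis, percentage points), 1 point per embryo, orange for Ankrd11-nchet and green for Ankrd11-ncko. The 6 points of cluster 9 itself lie above 0, from 2.74 to 17.9, and each other cluster has points on both sides of 0.

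Cells outside the OFT outline were counted in the same way to ask whether cluster 9 lay at its edge. Among the 10 segmented cells on each side, 39.7% ± 16.3 lay outside the outline for cluster 9 and 35.0% for the other OFT cells (means over 6 embryos, SD). The difference of 4.70 percentage points ± 9.83 was positive in 2 of 6 embryos, embryo 3 of each genotype (exact 2-sided sign-flip p = 0.5, adjusted p = 0.714 over 10 clusters), and 0% of the clusters had the same sign in all 6 embryos. In control 3 the share was 57.6% against 45.5%, and in Ankrd11-ncko 3 it was 44.7% against 23.3%. In the other 4 embryos it differed by at most 3.16 percentage points from that of the other OFT cells. With 20 cells on each side the difference was 5.69 percentage points and positive in 4 of 6 embryos.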

How the data were processed

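The authors imaged transverse sections on the MERSCOPE instrument and used MERlin 0.1.6 for decoding and Cellpose for segmentation. Data were read in with squidpy 1.3.1, an outline was drawn by hand around the OFT, and all cells inside it were normalized, scaled and clustered jointly in Seurat 5.0.1 (Leiden, 30 principal components). Neither the clustering resolution nor a correction between runs is given in the sources used here. The deposited counts used here are raw integers, the decoded transcripts of a cell summed over the panel. The other values used are the number of panel genes per cell, the mark for the outline, the embryo, the genotype and the cluster. Probes were read directly, so no genome build applies.

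Shares, medians and quartiles were computed per embryo in Python 3.11.15 (with scipy 1.17.1, numpy 2.4.6 and pandas 2.3.3), and figures were drawn with matplotlib 3.10.9. Genotypes were compared over embryos by exact 2-sided permutation tests, and neighbours by exact sign-flip tests over 6 embryos (smallest p 0.0312), with Benjamini-Hochberg adjustment. The genotype difference in share and the block neighbours were tried on simulated or shuffled data, and the sign-flip test on a fixed input. The other measures were not tried in this way. Replicate numbers follow the order of the samples and pair nothing, and the stems of the sample titles were used as a set of embryos only. Each embryo gave 1 section, so p-values measure the spread between embryos and sections together. No gene was ranked: genes named are those by which the study's heatmap sets cluster 9 and the compared clusters apart, with Penk, Postn, Sox9, Cdh5 and Aldh1a2 added as genes low in cluster 9. The members, lists and comparisons were chosen with earlier results of these data known. Alternatives were other denominators, minimum transcripts, windows, neighbourhoods, sets of embryos, and leaving out each embryo. Those chosen after seeing the data were the cells within 10% or the 50 cells nearest in transcripts, 20 neighbours on each side, leaving out embryos in the neighbour comparisons, and the neighbours outside the outline.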

Additional observations from a re-analysis of the deposited data

How the results depend on the processing

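The direction of the 6 genotype differences of cluster 9 held under every alternative run. None passed an adjusted threshold, with 0.1 the smallest p that the exact permutation test of 3 embryos against 3 allows. Minimums of 50 and 200 transcripts could not change the measures taken on cluster 9 cells alone, since none of these cells held fewer than 206. The size of the differences did not hold. The share among clusters 5, 6 and 9 differed by -3.87 percentage points, but by -0.691 among clusters 1, 5, 6 and 9 and by -9.46 among clusters 6 and 9. The difference of 3.33 panel genes at 200 to 1000 transcripts became 4.33 in a wider window. It became 1.83 against the 50 cells nearest in transcripts and 1.33 against cells within 10%. Leaving out each embryo in turn gave -1.95 to -0.626 percentage points for the share of OFT cells, -5.60 to -1.36 for the share among clusters 5, 6 and 9, 11.3 to 212 for median transcripts, 0.583 to 7.58 for median panel genes, 2.25 to 5.33 for panel genes at 200 to 1000 transcripts, and -0.452 to -0.250 for the quartile ratio. Over all results and alternatives, 118 of 127 values kept their direction and 9 reversed, all among the neighbours of cluster 9. The 118 include the values that a minimum of transcripts could not change. For cluster 1 the difference by block (-0.506 percentage points) became 4.48 with 10 and 4.75 with 20 OFT cells on each side in identifier order, and ran from -2.85 to 0.890 without single embryos. For cluster 6 (0.324) it became -0.929 and -0.403, and ran from -0.640 to 1.11. For cluster 5 (0.402) it ran from -0.557 to 1.48 without single embryos. For cluster 9 itself it ran from 0.671 to 2.24, and for the cells outside the outline from 1.37 to 6.27. The cause was not tested. No paired analysis was run, because the replicate numbers pair nothing and no label gives each control an Ankrd11-ncko partner. Among the 3 embryos whose titles share a stem (controls 1 and 2, Ankrd11-ncko 2), the differences were -0.876 percentage points for the share of OFT cells, -1.59 for the share among clusters 5, 6 and 9, 139 transcripts, 4.5 panel genes, 4.75 panel genes at 200 to 1000 transcripts, and -0.423 for the quartile ratio, all in the direction found over 6 embryos. The cluster holds 16 to 49 cells per embryo, so shares carry wide counting errors. The outline and the clustering were the authors' and were not varied, and transcripts per cell may depend on cell size, section plane and segmentation, which were not measured here.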
